A study of Mus musculus with 6 samples.

Results

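The genes of the constitutive proteasome were examined in macrophages labelled as deleted for PU.1 and in control macrophages. Members were all rows whose symbol is Psma, Psmb, Psmc, Psmd, Psme, Psmf or Psmg followed by a number, without the immunoproteasome genes Psmb8, Psmb9 and Psmb10. The rule found 44 of 15469 genes, and all 44 passed the filter on low counts. They were 8 Psma and 7 Psmb genes of the 20S core, 17 genes of the 19S particle (9 of the base and 8 of the lid), 4 Psme activators, the inhibitor Psmf1 and 7 assembly chaperones.

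RNA came from peritoneal macrophages of CAIA mice; the labels do not spell CAIA out. The cells had been sorted for RELM-α, a secreted resistin-like protein, and then plated. There were 3 libraries labelled KO, described as PU.1-deleted, and 3 labelled WT, described as control. All 6 shared the model, the sort and the culture. The sources used here do not give how PU.1 was deleted, nor the strain, age or sex of the mice, the time in culture or any pooling of animals. No label ties a library to its own animal or culture, so the spread behind each p-value may be technical only. The study asked how PU.1, an ETS-family transcription factor of myeloid cells, acts on ferroptosis, cell death through lipid peroxidation.

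The proteasome is the protease that degrades proteins tagged with ubiquitin. Its barrel, the 20S core, has outer rings of Psma (alpha) subunits that gate the entrance and inner rings of Psmb (beta) subunits, of which Psmb5, Psmb6 and Psmb7 carry the constitutive catalytic sites. The 19S particle caps the barrel: its base holds the Psmc ATPases that unfold the substrate, and its lid removes ubiquitin. Psme proteins are alternative caps. In macrophages, interferon replaces the constitutive catalytic subunits with Psmb8, Psmb9 and Psmb10 and raises Psme1 and Psme2, which alters the peptides made for MHC class I. When the proteasome is inhibited, the transcription factor NFE2L1 raises most of these genes together through antioxidant response elements, and NFE2L2 (NRF2) acts through the same kind of element under oxidative stress.

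The libraries held 17280855 to 18632623 counts each. Spi1, which encodes PU.1, was at 276.9, 285.5 and 319.7 CPM (counts scaled to library size with TMM factors) in KO_1, KO_2 and KO_3, and at 323.4, 340.2 and 283.7 CPM in WT_1, WT_2 and WT_3. Its log2 difference, KO minus WT, was -0.10 (SE 0.106, edgeR adjusted p = 0.561), which is not the loss of transcript that the label names, and directions below are between libraries labelled KO and labelled WT. Gene counts would not show the loss of a single exon. KO_1 stood apart: across genes it correlated at 0.902 and 0.922 with KO_2 and KO_3 but at 0.955 to 0.959 with the WT libraries, so results are given with and without it. The 4 measured Y-linked genes held 1 to 8 counts in the KO libraries and 2158 to 2854 in the WT libraries, so the sex of the mice and the label cannot be told apart. All 6 macrophage markers were present, with summed levels, mostly Lyz2, of 19689 to 44046 CPM in the KO and 35289 to 39601 CPM in the WT libraries. Of these Csf1r, the receptor of the macrophage growth factor CSF1, was called higher, at 2900, 2609 and 2573 CPM in KO_1, KO_2 and KO_3 against 1562, 1560 and 1567 CPM in WT_1, WT_2 and WT_3 (log2 0.79, edgeR adjusted p = 0.0208). Adgre1 (F4/80) was also higher in every KO library, short of the threshold (log2 0.77, adjusted p = 0.0758). Mrc1 and Cd68 were lower in every KO library, also short of it (log2 -0.71 and -0.17, edgeR adjusted p = 0.152 and 0.325). Lyz2 and Itgam overlapped between the labels (log2 -0.17 and 0.63). The lists for B cells, T and NK cells, neutrophils, eosinophils, mast cells, dendritic cells, mesothelial cells and erythroid cells each summed to under 10 CPM in every library. Cd3d, Ly6g, Epx, Mcpt4, Msln, Wt1 and Alas2 of these lists had no values and were not part of the sums. The 4 platelet markers summed to 16.0 to 54.1 CPM in KO and 57.1 to 99.1 CPM in WT libraries, and the 3 fibroblast markers to 1.71 to 29.1 and 4.26 to 7.33 CPM. Of the platelet markers 2 were called lower: Itga2b, at 4.4, 0.873 and 1.15 against 20.6, 40.4 and 32.5 CPM, and Gp9, at 0.11, 0 and 0 against 1.28, 2.77 and 1.02 CPM (edgeR adjusted p = 0.0482 and 0.0452). Ppbp was also lower in every KO library, at 4.68, 0.0513 and 0.313 against 17.7, 34.1 and 28.3 CPM. It was not called (edgeR adjusted p = 0.137). Pf4 was at 44.9, 16.2 and 14.5 against 17.6, 21.8 and 17.6 CPM and was not called. It lay above every WT library in KO_1 and below every WT library in KO_2 and KO_3. The fibroblast sums above the WT range came from KO_2 and KO_3. The part of platelet and fibroblast RNA in the results was not tested. The gene of RELM-α itself, Retnla, was not analysed here.

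In the WT libraries the subunits of the 20S core were present at similar transcript levels. Levels of different genes are compared here in TPM, the deposited transcript abundance, which is per length. Among the 14 genes Psma1 to Psma7 and Psmb1 to Psmb7, the highest level was 2.83, 2.76 and 2.38 times the lowest in WT_1, WT_2 and WT_3, and 2.52, 2.40 and 2.77 times in KO_1, KO_2 and KO_3. Psmb5, the chymotrypsin-like catalytic subunit, was the highest of the 14 in each of the 6 libraries, at 337.1 ± 23.0 TPM in WT (SD, n = 3). The lowest was Psma4 in WT_1, Psma5 in WT_2 and WT_3, Psma3 in KO_1 and KO_3, and Psma1 in KO_2. Psma4 and Psma5, at 132.4 ± 9.88 and 131.6 ± 6.89 TPM in WT, did not differ beyond their spread, and Psma1, at 151.9 ± 6.66 TPM, lay above both.

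The 19S lid was less even than the core, through Psmd8. This subunit had the highest WT level of all 44 genes, 368.2 ± 16.1 TPM, and the other 7 lid genes had mean WT levels of 62.5 to 102 TPM. The 6 ATPases were as even as the core in the WT libraries (highest over lowest 2.21, 2.05 and 1.79), from 69.1 ± 9.81 TPM for Psmc6 to 137.9 ± 6.02 TPM for Psmc1. Of the caps, Psme2 and Psme1 (PA28 beta and alpha, which form one ring) were at 237 ± 22.5 and 159 ± 9.69 TPM, Psme3 (PA28 gamma, a nuclear cap) at 59.4 ± 7.23 TPM and Psme4 (PA200, a large nuclear cap known for the turnover of acetylated histones) at 26.8 ± 3.98 TPM. The chaperones that assemble the particle were low, from 14.9 ± 0.485 TPM for Psmg1 to 33.99 ± 2.04 TPM for Psmd5, and Psmf1 (PI31) was at 14.05 ± 2.08 TPM. Psma8, an alpha subunit of testis proteasomes that takes the place of Psma7 there, was last with 2.81 ± 0.994 TPM.

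**Figure D1:**
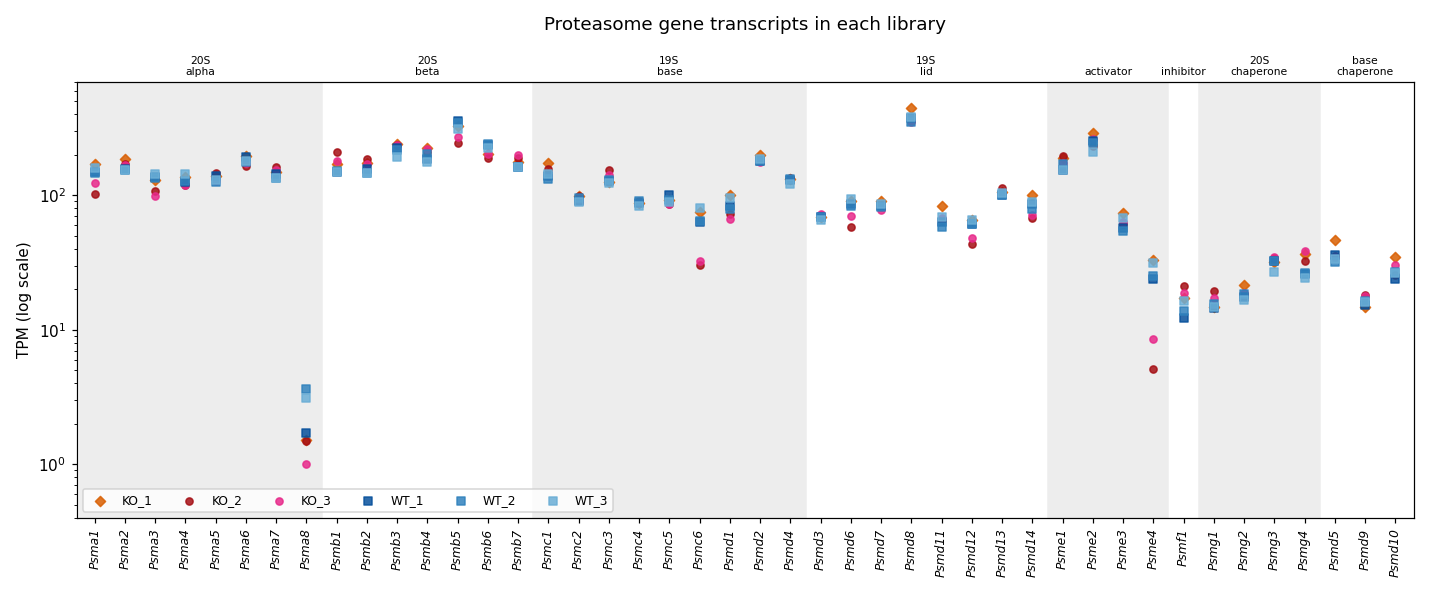
Transcript level of each of the 44 proteasome genes (x axis, grouped by role) in TPM on a log scale (y axis), 1 point per library. Most genes show the 6 libraries close together, while Psme4 and Psmc6 are low in KO_2 and KO_3 (5.11 and 8.52 TPM, and 30.4 and 32.7 TPM) but not in KO_1.

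These are bulk libraries, in which fewer cells of a type and less RNA per cell cannot be told apart. No proteasome gene was called between the labels when all 6 libraries were compared. Of 44 tested, 0 were higher and 0 lower at an adjusted p under 0.05 (edgeR quasi-likelihood test, Benjamini-Hochberg over 11424 genes), where 3.32% of all genes were called (2.26% higher and 1.06% lower). At an unadjusted p under 0.05 there were 9 of 44 (20.5%), 1 higher and 8 lower, against 22.7% of all genes (1709 higher and 887 lower of 11424). The log2 difference was negative for 29 genes and positive for 15, with a median of -0.07, against a median of -0.01 over all genes tested. DESeq2 called 2 members, Psma3 and Psmb6, both lower in KO (adjusted p = 0.0024 and 0.0205), where it called 10.8% of the genes to which it gave an adjusted p. In the authors' deposited table the same 2 genes had a q-value under 0.05 (0.00298 and 0.0252), where 8% of its genes did. limma-voom called 0 members and 2.93% of all genes, with 11 members (25%) and 23.9% of all genes at an unadjusted p under 0.05.

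The differences were small in size. The middle member differed by 0.09 in absolute log2 and the middle gene of all tested by 0.28. Of the 44 genes, 41 (93.2%) differed by under 0.5 in log2, against 70.4% of all genes, and 41 had a 95% interval that lay within a 2-fold change in either direction (log2 of -1 to 1), against 7273 of 11424 genes. Where the mean was 10 CPM or more, the medians were 0.10 for 40 members and 0.23 for 8278 genes. Genes with few counts vary more, and these shares are a description. The CPM of KO and WT libraries did not overlap for 15 members: 13 with all KO libraries lower (29.5%, against 12.6% of all genes) and 2 with all KO libraries higher (4.55%, against 18.4%). These counts depend on the scale. In TPM only Psma3, Psma8 and Psmb6 were lower in every KO library. Psma2, Psma7, Psmb1 to Psmb4, Psmb7, Psmd13, Psme1, Psmf1 and Psmg4 were higher in every KO library in TPM. The share of all genes was not counted in TPM, where the median gene tested was 0.14 higher in log2 in KO. These TPM lists can therefore not be read as a trait of the members.

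**Figure D2:**
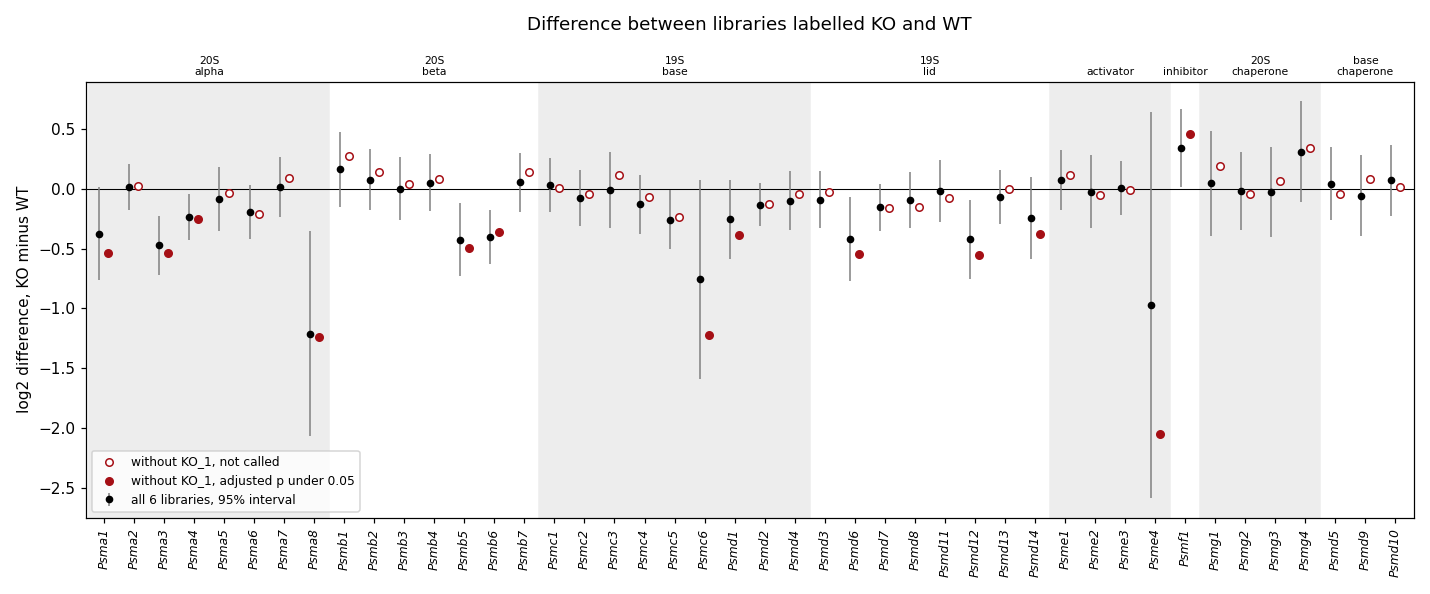
Log2 difference, KO minus WT, of each gene (y axis; x axis, genes by role). Black points are the fit of all 6 libraries with 95% intervals, and red circles the fit without KO_1, filled where the adjusted p is under 0.05; the 13 filled circles are 12 lower genes and Psmf1.

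**Figure D3:**
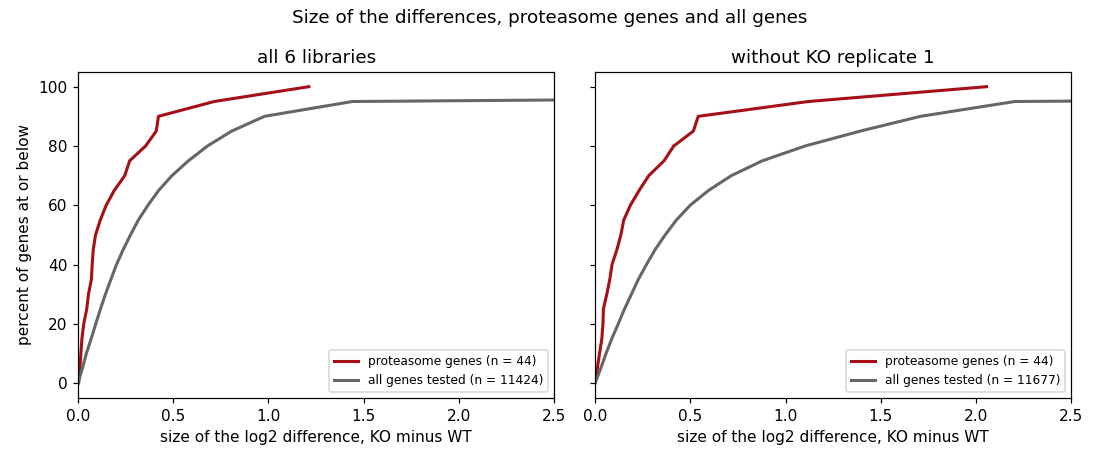
Percent of genes (y axis) whose log2 difference is no larger in size than the value on the x axis, for the 44 proteasome genes and for all genes tested, with all 6 libraries (left) and without KO_1 (right). The curve of the proteasome genes lies to the left, with medians of 0.09 against 0.28 and of 0.14 against 0.37.

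TPM and TMM-scaled counts placed zero differently. In TPM the median gene tested was 0.14 higher in log2 in the libraries labelled KO, and the median proteasome gene 0.08 higher, with 30 of 44 members above 0. With TMM factors the medians were -0.01 and -0.07, with 15 of 44 above 0. Counted against the median gene, 16 members in TPM and 15 with TMM lay above it. With upper-quartile factors the medians were 0.05 and -0.02, with 21 members above 0. The sign of a difference smaller than about this shift therefore depends on the scaling, and so can overlap between the labels. The differences below are on the TMM scale.

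The genes of the alpha ring had the lowest median among the core and 19S groups, -0.21 in log2 over 8 genes. With the GC content and length correction described below this order turned, with medians of -0.02 for the alpha ring, -0.03 for the beta ring and -0.17 for both the base and the lid. Psma3 was at 73.4, 65.4 and 59.9 CPM in KO_1, KO_2 and KO_3 and at 95.1, 89.5 and 91.0 CPM in WT_1, WT_2 and WT_3. Every KO library lay below every WT library, and the log2 difference was -0.47 (SE 0.101, 95% interval -0.72 to -0.226, edgeR adjusted p = 0.0646). Psma4 was at 65.9, 62.5 and 62.1 against 73.5, 73.3 and 77.7 CPM, also without overlap (log2 -0.24, adjusted p = 0.151). Psma1 was at 96.5 CPM in KO_1, close to the 99.8 to 103.3 CPM of the WT libraries, and at 63.4 and 75.4 CPM in KO_2 and KO_3 (log2 -0.37, SE 0.161, adjusted p = 0.235). Psma6 lay just below the WT range in the KO libraries (log2 -0.19, adjusted p = 0.278). Psma2, Psma5 and Psma7, whose groups overlapped, had log2 differences of 0.02, -0.08 and 0.02. Psma7 was at 60.2, 70.8 and 66.8 against 69.9, 64.3 and 61.0 CPM (95% interval -0.232 to 0.27). The testis-type Psma8 was the lowest in log2 of all members, at 1.21, 1.33 and 0.886 CPM in KO_1, KO_2 and KO_3 against 1.69, 3.47 and 2.82 CPM (log2 -1.21, SE 0.352, adjusted p = 0.119), the faintest transcript of the 44.

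In CPM the catalytic beta subunits Psmb5 and Psmb6 were lower in each library labelled KO. The other 5 beta subunits overlapped between the labels. In TPM, where the median gene stood higher in KO, these 5 were higher in every KO library. There Psmb5 overlapped, at 329.2 TPM in KO_1 against 311.0 TPM in WT_3, and Psmb6 stayed lower in each KO library. Psmb5 was at 115.7, 93.8 and 103.3 CPM in KO_1, KO_2 and KO_3 and at 152.2, 144.2 and 123 CPM in WT_1, WT_2 and WT_3. The log2 difference was -0.42 (SE 0.124, 95% interval -0.725 to -0.121, edgeR adjusted p = 0.12). Psmb6, the caspase-like catalytic subunit, was at 88.9, 92.4 and 97.1 against 128.7, 127.5 and 111.2 CPM, with KO_1 the lowest of all (log2 -0.40, SE 0.0928, 95% interval -0.627 to -0.174, adjusted p = 0.0763). Both differences were short of the threshold with edgeR. The third catalytic gene, Psmb7 (trypsin-like), was at 67.6, 80.2 and 79.2 against 76.1, 73 and 69.4 CPM, with overlap (log2 0.06, 95% interval -0.191 to 0.301, adjusted p = 0.744). Psmb1, a structural beta subunit, had the highest log2 difference of the ring, at 76.2, 102.7 and 86.2 against 81.2, 80.5 and 74.9 CPM (log2 0.16, adjusted p = 0.451). Psmb2, Psmb3 and Psmb4, also structural, had log2 differences of 0.08, 0.00 and 0.05.

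In the 19S base, Psmc6 stood out among the ATPases by the split between KO libraries. Psmc6 (chromosome 14, 45329823 to 45349074, plus strand, GRCm38) was at 55.9 CPM in KO_1, just under the 57.2, 56.8 and 67 CPM of WT_1, WT_2 and WT_3, and at 24.9 and 26.4 CPM in KO_2 and KO_3. Over all 6 libraries the log2 difference was -0.76 (SE 0.338, 95% interval -1.59 to 0.0773, edgeR adjusted p = 0.252). Psmc6 was the lowest of the 6 ATPase genes in TPM in every library, and the highest ATPase was 5.16 and 4.29 times its level in KO_2 and KO_3 against 1.79 to 2.34 times in the other 4 libraries. The other 5 ATPases had log2 differences from -0.26 to 0.03. Psmc1 was at 124.1, 122.1 and 106.9 against 120, 110.9 and 114 CPM (log2 0.03, 95% interval -0.19 to 0.257), and Psmc2, Psmc3 and Psmc4 were at -0.08, -0.01 and -0.13 in log2, all with overlap. Psmc5 was at 53.3, 54.7 and 54.2 against 71.8, 63.5 and 58.5 CPM, without overlap (log2 -0.26, adjusted p = 0.206). Of the scaffold and ubiquitin-binding subunits, Psmd1 was at 170.3, 135.7 and 123.8 against 172, 160.8 and 180.1 CPM (log2 -0.26, adjusted p = 0.312), Psmd2 at -0.13 and the ubiquitin receptor Psmd4 at -0.10 in log2.

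All 8 lid genes had a negative log2 difference, with a median of -0.12, and 0 were called. The sign of the smallest of these depends on the scaling, as given above. Psmd12 was at 54.4, 39.5 and 43.3 CPM in KO_1, KO_2 and KO_3 against 62.1, 60.2 and 61.3 CPM in WT_1, WT_2 and WT_3 (log2 -0.42, SE 0.135, 95% interval -0.751 to -0.0904, edgeR adjusted p = 0.142). Psmd6 was at 56, 39.3 and 46.8 against 64.4, 60.8 and 64.7 CPM (log2 -0.42, adjusted p = 0.16). For both genes the groups did not overlap and KO_1 was the KO library nearest to WT. Psmd14, the deubiquitinase of the lid, was at 73.2 CPM in KO_1, within the WT range of 68.2 to 76.8 CPM, and at 54.1 and 56.2 CPM in KO_2 and KO_3 (log2 -0.24, adjusted p = 0.337). Psmd11, which promotes assembly of the full particle, had the highest log2 difference of the lid, at 80.7, 68.6 and 70 against 76.8, 67.8 and 77.1 CPM (log2 -0.02, 95% interval -0.273 to 0.243). Psmd3, Psmd7, Psmd8 and Psmd13 lay between -0.15 and -0.07.

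Of the alternative caps, Psme4 had the widest split of any proteasome gene. Psme4 (chromosome 11, 30771775 to 30881150, plus strand) was at 115.8 CPM in KO_1, within the WT values of 102.5, 103.7 and 122.5 CPM, and at 19.7 and 32.5 CPM in KO_2 and KO_3. The 2 KO libraries other than KO_1 were thus the lowest, and the groups overlapped through KO_1 alone. The log2 difference over 6 libraries was -0.97 (SE 0.655, 95% interval -2.59 to 0.648, edgeR adjusted p = 0.402). The interferon-inducible pair overlapped between the labels: Psme1 was at 78.3, 88.1 and 76.9 against 76.9, 83.2 and 71.1 CPM (log2 0.07, 95% interval -0.175 to 0.323), and Psme2 at 106.7, 92.7 and 103 against 113.3, 106.9 and 87 CPM (log2 -0.02, 95% interval -0.33 to 0.284). The table also lists Psme2b, a near copy of Psme2, at 1.75 to 14.8 CPM, and reads of the pair may have been split between them. Psme3 was at 0.01 in log2. The inhibitor Psmf1 had the highest log2 difference of the 44 genes, though one of the lowest levels, at 32.1, 42.5 and 37.9 against 27.7, 29.1 and 32 CPM. KO_1 and WT_3 were almost equal there (log2 0.34, SE 0.133, adjusted p = 0.201).

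None of the 7 assembly chaperones was called, and 6 of them overlapped between the labels. Psmg1, Psmg2 and Psmg3 had log2 differences of 0.05, -0.02 and -0.03, with SE of 0.133 to 0.181 at levels of 6.6 to 13.6 CPM. Psmg4 was at 5.67, 5.39 and 6.41 CPM in KO_1, KO_2 and KO_3 against 4.88, 4.97 and 4.2 CPM in WT_1, WT_2 and WT_3, without overlap (log2 0.31, SE 0.172, edgeR adjusted p = 0.322). The chaperones of the base, Psmd5, Psmd9 and Psmd10, were at 0.04, -0.06 and 0.07. Psmd9 was at 19.7, 26.2 and 25.9 CPM in KO_1, KO_2 and KO_3 against 24.9, 25.9 and 23.8 CPM in WT_1, WT_2 and WT_3, with KO_1 the lowest.

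**Figure D4:**
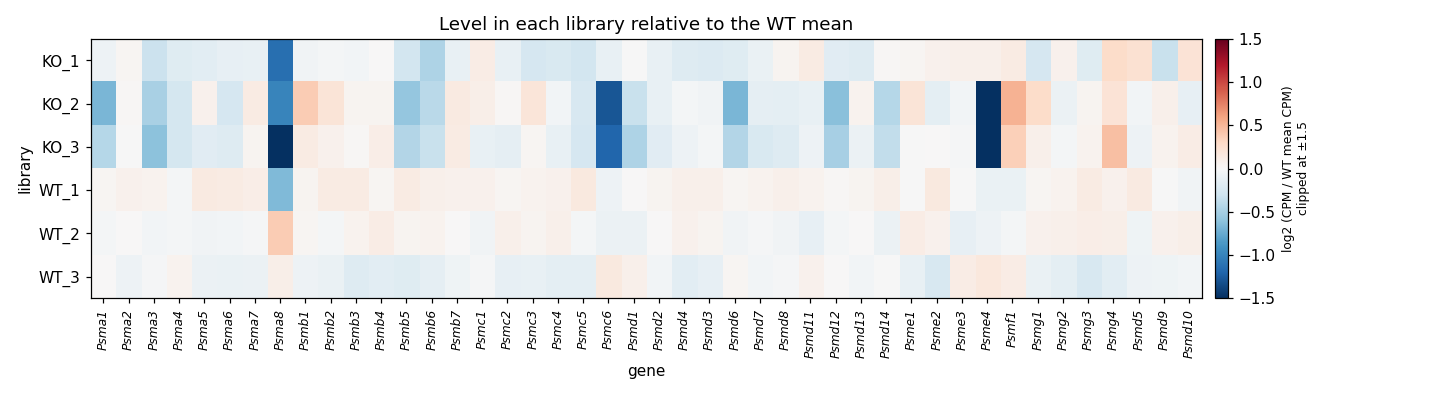
Level of each proteasome gene (x axis) in each library (y axis) as log2 of its CPM over the mean of the WT libraries, from blue (lower) to red (higher), clipped at 1.5. KO_2 and KO_3 share low values of Psma1, Psmc6, Psmd6, Psmd12, Psmd14 and Psme4 that KO_1 shows little of or not at all.

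Without KO_1, 13 proteasome genes were called, 12 lower and 1 higher in KO_2 and KO_3 than in the WT libraries. That is 29.5% of the members, where 49.6% of all genes were called (23.6% higher and 26% lower). The share of members called lower, 27.3%, was near that of all genes, and 2.27% were called higher. The 12 lower genes were Psma1, Psma3, Psma4, Psma8, Psmb5, Psmb6, Psmc6, Psmd1, Psmd6, Psmd12, Psmd14 and Psme4, and the higher one was Psmf1. Psme4 was lowest, with a log2 difference of -2.06 (SE 0.218, edgeR adjusted p = 0.000442), or 0.241 of the WT level. Next was the faint Psma8 at -1.24 (SE 0.369, edgeR adjusted p = 0.0239), then Psmc6 at -1.22 (SE 0.113, adjusted p = 0.000129), a fold of 0.429. Apart from Psme4, Psma8 and Psmc6, the genes called lower lay between -0.55 and -0.25. Psmf1 was at 0.46 (SE 0.108, adjusted p = 0.00884). Without any other single library 0 members were called, and 5 to 15 genes of all were.

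The lower genes without KO_1 had transcripts of low GC content. Their median was 44.1% over 12 genes, against 51.3% for the 31 members not called and 50.3% over all genes tested, and over all 3032 genes called lower it was 44.0%. Across the 44 members the log2 difference without KO_1 followed GC content with a Spearman's rho of 0.42, and across 11490 genes with 0.39. Genes are not independent replicates, and the values share the same 5 libraries. Psmc6 had the lowest GC content of the members (37%), and Psme4 had 43.9% and the longest transcript, 6491 bases. Psmb5 (56.6%) and Psmb6 (55.8%) were the exceptions, with GC content above the median and lower values. When smooth terms for GC content and transcript length were fitted per library and KO_1 was left out, Psmc6 was at 0.31 (adjusted p = 0.0296), Psma3 at 0.04 and Psma1 at -0.02. Psme4 stayed at -1.55, Psmb5 at -0.59, Psmb6 at -0.48 and Psmd6 at -0.54 (edgeR adjusted p of 5.51e-05, 7.31e-05, 0.000187 and 0.0014). In that fit 25 members were called, 6 higher and 19 lower, where 54% of all genes were (23.1% higher and 30.9% lower). For some members the annotated transcript is much longer than the length implied by the deposited values, which limits the correction for those genes. Among them are Psma2 (2911 against 694 bases), Psmb1 (1758 against 784), Psmd5 (4397 against 1774) and Psmc6 (2234 against 1314). Without KO_1 the correction put Psma2 at 1.20, Psmd10 at 0.73 and Psmb1 at 0.64 (edgeR adjusted p = 0.000675, 0.000334 and 0.00134). With the same terms and all 6 libraries, only Psmb6 was called among the members (log2 -0.41, adjusted p = 0.0279), where 5.91% of all genes were.

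**Figure D5:**
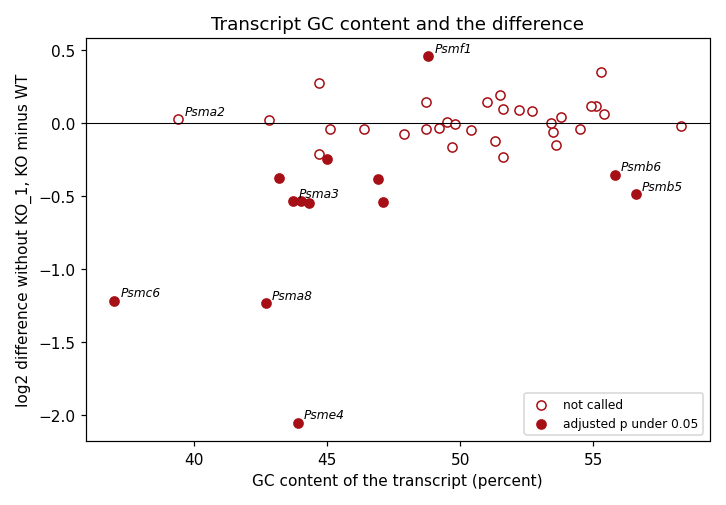
Log2 difference without KO_1 (y axis) against GC content of the transcript in percent (x axis) for the 44 proteasome genes, filled where the adjusted p is under 0.05. Of the 12 filled points below 0, 10 lie between 37% and 47.1% GC, while Psmb5 and Psmb6 lie at 56.6% and 55.8%.

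The promoters were searched for TGACNNNGC, the core of the antioxidant response element that NFE2L1 and NFE2L2 bind, because these factors are known to drive proteasome genes. The RefSeq table (GRCm38.p6; 250 bases before to 50 after the start) held promoters of 36 of the 44 genes. On either strand the motif was in 6 of them (16.7%), against 14% of 27025 genes in the table, and CCAAT was in 12 (33.3%, against 41.1%). Of the 11 genes with a promoter that were lower without KO_1, 5 held it (Psmb5, Psmb6, Psmc6, Psmd12 and Psme4), and of the other 25, 1 did (Psmd9). The groups were formed from these same libraries, the matches are few, and the split was not tested. Over all genes the motif was in 18.2% of those called lower without KO_1 and 16.8% of the others. A match of 9 letters is a description and not a binding site. The start is that of the promoter table, which is the start of the gene in RefSeq for 4 of the 6 and lies 1 base further into the gene for Psmc6 and 33 bases for Psmb6, so that the match of Psmb6 lies after the start of the gene in RefSeq. The 6 matches are shown with up to 26 bases on each side (10 for Psmb6) but no more than 2 past that start, 5′ to 3′ on the strand of the gene, the motif (or its reverse complement) in capitals.
Psmb5, chr14:54618008-54618068, minus strand, motif from base -47: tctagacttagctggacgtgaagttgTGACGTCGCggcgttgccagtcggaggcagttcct
Psmb6, chr11:70525338-70525358, plus strand, motif from base -9: ctaaagagagTGACGGAGCgc
Psmc6, chr14:45329574-45329631, plus strand, reverse complement from base -227: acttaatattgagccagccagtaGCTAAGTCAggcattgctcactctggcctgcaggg
Psmd12, chr11:107479278-107479315, plus strand, reverse complement from base -247: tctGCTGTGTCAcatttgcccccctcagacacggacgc
Psmd9, chr5:123228133-123228191, plus strand, motif from base -31: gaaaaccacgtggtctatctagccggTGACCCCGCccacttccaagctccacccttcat
Psme4, chr11:30771742-30771776, plus strand, reverse complement from base -7: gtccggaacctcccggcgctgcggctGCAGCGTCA

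Summed over the 44 genes, proteasome transcripts took 5569, 4995 and 4981 TPM in KO_1, KO_2 and KO_3 and 5101, 5032 and 5020 TPM in WT_1, WT_2 and WT_3. KO_1 was the highest and the other 5 libraries lay within 4981 to 5101 TPM. The KO mean was 1.03 times the WT mean in TPM and, set against the median gene, 0.929 times. The 20S core was at 2506 ± 106 against 2468 ± 49.4 TPM, and the 19S base and lid at 1935 ± 174 against 1922 ± 42.6 TPM. The caps with Psmf1 were at 548.8 ± 49.2 against 496.2 ± 14.5 TPM and the chaperones at 191.9 ± 9.57 against 164.3 ± 5.14 TPM, ratios of 1.11 and 1.17, or 1.002 and 1.06 set against the median gene. On TMM-scaled CPM the sum of all 44 was 0.905 times the WT mean.

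The immunoproteasome partners were compared with the constitutive catalytic genes they replace. The ratio of Psmb8 to Psmb5 in TPM was 0.528, 0.659 and 0.585 in KO_1, KO_2 and KO_3 against 0.352, 0.357 and 0.378 in WT_1, WT_2 and WT_3, and that of Psmb9 to Psmb6 was 0.332, 0.402 and 0.409 against 0.169, 0.207 and 0.18. Both ratios were higher in every library labelled KO (1.63 and 2.06 times), with p = 0.1 in a two-sided exact permutation test, the smallest that 3 against 3 allow, and 0.15 after Benjamini-Hochberg adjustment over 3 ratios. The ratio of Psmb10 to Psmb7 overlapped (0.485 ± 0.0409 against 0.522 ± 0.0406, exact p = 0.4). Psmb8 itself was at 95.8, 97.2 and 95.2 CPM in KO_1, KO_2 and KO_3 against 84.2, 80.8 and 72.6 CPM in WT_1, WT_2 and WT_3, and Psmb9 at 22.5, 28 and 30.3 against 16.6, 20.3 and 15.3 CPM. Both were higher in every KO library. With all 6 libraries edgeR did not call them (log2 0.28 and 0.63, adjusted p = 0.135 and 0.102), and without KO_1 it did (log2 0.30 and 0.76, adjusted p = 0.0299 and 0.00257). Of all genes, 23.6% were called higher without KO_1. With all 6 libraries Psmb9 was called by DESeq2 (adjusted p = 0.0433) and with the GC content and length correction (edgeR adjusted p = 0.0459), and Psmb8 by neither (0.116 and 0.13). With the correction and without KO_1, Psmb9 was called (log2 0.63, edgeR adjusted p = 0.00115). Psmb8 was not called in that fit (log2 0.15, edgeR adjusted p = 0.0612). Psmb10 was at 54, 56.9 and 56.3 against 59.5, 63.4 and 51.3 CPM, with overlap (log2 -0.06, edgeR adjusted p = 0.74).

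Other parts of the pathway were taken from lists of genes that are no members. Of 11 further proteasome factors, edgeR and DESeq2 called 0 with all 6 libraries (3 at an unadjusted p under 0.05 with each), and without KO_1 edgeR called 1 higher and 4 lower. With all 6 libraries edgeR called 3.32% of all genes, and DESeq2 called 10.8% of those to which it gave an adjusted p. At an unadjusted p under 0.05 the shares of all genes were 22.7% and 18.8%. Of all genes tested without KO_1, 23.6% were called higher and 26% lower. Adrm1, the ubiquitin receptor of the base, was at 65.8, 61.2 and 68.6 CPM in KO_1, KO_2 and KO_3 against 80.9, 78.7 and 65.5 CPM in WT_1, WT_2 and WT_3. Pomp, the maturation factor of the core, was at 74.1, 101.4 and 88 against 101.8, 104.1 and 89.5 CPM. Both overlapped between the labels (log2 -0.20 and -0.16, edgeR adjusted p = 0.327 and 0.479). Without KO_1 the deubiquitinases Usp14 and Uchl5 of the 19S particle were at -0.70 and -0.97 in log2 (adjusted p = 0.000945 and 0.00139). With the GC content and length correction and without KO_1 they were at 0.25 and 0.09 (edgeR adjusted p = 0.0304 and 0.622).

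The factors that transcribe proteasome genes were not called by edgeR with all 6 libraries. Nfe2l1 was at 187.2, 259.4 and 245.6 CPM in KO_1, KO_2 and KO_3 against 184.6, 177.3 and 179.8 CPM in WT_1, WT_2 and WT_3. All KO libraries were above the WT libraries, KO_1 by little (log2 0.35, edgeR adjusted p = 0.196; without KO_1 0.50). Nfe2l2 was at 431.8, 281.4 and 354.3 against 339.2, 348.5 and 393.6 CPM, with KO_1 the highest and KO_2 the lowest (log2 -0.02, adjusted p = 0.952). Of the 8 genes of that list, edgeR and DESeq2 called 0 with all libraries (4 and 3 at an unadjusted p under 0.05). Of all genes they called 3.32% and 10.8%, with 22.7% and 18.8% at an unadjusted p under 0.05. Without KO_1 edgeR called 3 higher and 1 lower, where 23.6% of all genes were called higher and 26% lower. Of 8 NRF2 target genes, edgeR and DESeq2 called 0 with all libraries (0 at an unadjusted p under 0.05 with either). Without KO_1 all 8 were called lower, with a median of -1.38, against 12 of 44 proteasome genes with a median over the members of -0.04. The KO libraries differed here. KO_1 lay above every WT library for Nqo1, Gclm, Gclc, Srxn1 and Slc7a11, and within the WT range for Txnrd1, Hmox1 and Prdx1.

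Complexes built or folded in similar ways gave the following counts. With all 6 libraries edgeR called 0 of 8 CCT chaperonin genes, 0 of 9 genes of the COP9 signalosome and 0 of 13 eIF3 genes, the last 2 being relatives of the lid. At an unadjusted p under 0.05 there were 0, 1 and 2. Of all genes edgeR called 3.32% and DESeq2 10.8%, and 22.7% had an unadjusted p under 0.05 with edgeR. DESeq2 called 1 gene of these lists, Eif3h (log2 0.45, adjusted p = 0.0307), as did edgeR with the GC content and length correction (log2 0.35, adjusted p = 0.0304). Without KO_1, where 23.6% of all genes were called higher and 26% lower, 3 CCT genes were higher and 1 lower, 1 COP9 gene was higher and 1 lower, and 5 eIF3 genes were higher and 4 lower. Of 11 ubiquitin and shuttle genes edgeR called 0 with all libraries and DESeq2 called 1, Rad23b, higher (log2 0.28, adjusted p = 0.0497). Without KO_1 3 were higher and 1 lower, the lower one being Uba6, a ubiquitin-activating enzyme, at 26.3, 4.42 and 7.82 CPM in KO_1, KO_2 and KO_3 against 19.1, 19.6 and 31.5 CPM. Of 7 heat shock genes tested, Bag3, a co-chaperone of selective autophagy, was called lower with all 6 libraries, at 64.4, 62.6 and 65.8 against 88.7, 94.2 and 86.4 CPM (log2 -0.48, edgeR adjusted p = 0.0401). Without KO_1, 3 of the 7 were higher and 3 were lower.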

How the data were processed

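RNA-seq libraries of 6 mouse macrophage samples, 3 labelled KO and 3 labelled WT, were analysed from the authors' deposited gene table. Per the file headers the authors deposited estimated counts (read counts, of which 4.82% to 5.49% were not whole numbers), TPM and FPKM per library, and a log2 fold change, p-value and q-value per gene. The submitters' processing notes name fastp 0.18.0 and GRCm39, whereas 13131 of 15426 matched genes start at the position RefSeq gives for GRCm38.p6, the build used for coordinates here. Aligner, counting tool, use of strand and treatment of reads shared by gene copies were not given in the sources used here. FPKM was not used.

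Estimated counts were rounded to whole numbers, genes were filtered with filterByExpr (minimum count 10), and 11424 genes were tested with edgeR 4.0.16 (R 4.3.3; TMM factors, robust quasi-likelihood test, Benjamini-Hochberg adjustment, called at an adjusted p under 0.05). Library totals were 17280855 to 18632623. log2 differences are KO minus WT, and CPM are on TMM-scaled library sizes. Summed levels and ratios between genes use the deposited TPM. The alternatives were other scaling factors, DESeq2 1.42.0, limma-voom (limma 3.58.1), other filters, a replicate block and leaving out each library. Smooth terms for GC content and length per library (mgcv 1.9.3, GENCODE M21 transcripts, 14957 genes) and the comparison with the authors' q-values were chosen after seeing the data. Scripts were tested on simulated data.

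The members, the pathway and marker lists and the tests were chosen with earlier results of these data known. Named with their value in every library were the highest and lowest member by log2 difference in each class, Psmb5, Psmb6, Psmb7, the partners Psmb8, Psmb9 and Psmb10, Nfe2l1, Nfe2l2, Pomp, Adrm1 and any called gene of the lists. Values per library of other genes were chosen after their values were seen. All 44 members were matched to RefSeq by gene ID.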

Additional observations from a re-analysis of the deposited data

How the results depend on the processing

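None of the 44 proteasome genes was called or reversed with RLE or upper-quartile factors, limma-voom, no filter on low counts, the replicate block, or leaving out any library other than KO_1. Of the 44, 40 passed a mean of at least 10 CPM, with the same result. No member had a call to lose. The replicate block and the fits without another library called few or 0 genes of all, so 0 members called there is no measure of robustness. Of all genes 379 were called, against 1344 with DESeq2, 229 with the mean of at least 10 CPM, 665 with the GC content and length correction and 5 to 5793 when single libraries were left out, the highest without KO_1 and the others at 5 to 15. With the correction and without KO_1 6202 were called. Of the members 0 were called, against 2 with DESeq2, 2 by the authors' q-values, 1 with the correction, 25 with the correction and without KO_1, and 0 to 13 when single libraries were left out (13 without KO_1). Replicate numbers did not pair the samples (correlations of -0.162, 0.246 and -0.271), and with the replicate block edgeR called 0 genes and 0 members, with 1976 genes and 6 members at an unadjusted p under 0.05. On TMM-scaled CPM the summed levels, KO over WT, were 0.9054 for all members, 0.8993 for the core, 0.9039 for base and lid, 0.8971 for caps and inhibitor and 1.0203 for chaperones, against 1.026, 1.015, 1.007, 1.106 and 1.168 in TPM, where the median gene stands higher. With the GC content and length correction the sign turned for Psma4 (0.0414), Psma6 (0.1246), Psmc1 (-0.0608), Psmc6 (0.1574), Psmd14 (0.1957), Psme3 (-0.1646) and Psmg2 (0.1193). With the correction and without KO_1 it turned for Psma3 (0.0438), Psma4 (0.092), Psma6 (0.1665), Psma7 (-0.125), Psmb2 (-0.0851), Psmb3 (-0.13), Psmb4 (-0.1187), Psmc1 (-0.2182), Psmc6 (0.3076), Psmd14 (0.2578) and Psme3 (-0.3131). The same correction moved the median of the alpha ring from -0.21 to -0.02 in log2. The cause of these changes was not tested. Sign changes of uncalled values that moved by less than the spread between replicates are not counted. No member had a mean under 1 TPM, so leaving such members out changed nothing, and a comparison of protein sequences was not run.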
